A study of Mus musculus with 13 samples.

Results

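R-loop signal was examined at 8 mouse genes whose human counterparts are mutated in pontocerebellar hypoplasia: Tsen54, Tsen34, Tsen15, Clp1, Rars2, Sepsecs, Vrk1 and Chmp1a. They were chosen because mutation of EXOSC3, a protein depleted in the study, causes the same group of diseases. Each gene was taken with 1000 bases on both sides of its annotated bounds, and the 8 stand among 22367 protein-coding genes measured in the same way. No cut on a measured value was used, but the choice was made with earlier results of these data known.

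Neuro2A (N2a) cells, a mouse neuroblastoma line, had been transfected with a scramble siRNA (siScramble) or with siRNA against DDX1 (siDDX1) or EXOSC3 (siEXOSC3), and their genomic DNA was cut with 5 restriction enzymes and pulled down with the S9.6 antibody, which binds hybrids of RNA and DNA (DRIP-seq). Peak lists of 3 untreated libraries per group and of 1 library per group treated with RNase H, an enzyme that degrades the RNA in a hybrid, were compared, 12 lists in all. All groups were the same line and all had received siRNA, so there were no untransfected cells, and depletion lowers a protein without removing it. The question put to these genes was whether either depletion changed the R-loops they carry.

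The lists do not settle which group is which. In 12 of 12 lists the treatment in the peak names differed from the sample title, in a fixed rotation: the title siScramble went with the peak name siDDX1, the title siDDX1 with siEXOSC3, and the title siEXOSC3 with siScramble. Groups below follow the titles, so "labelled siEXOSC3" means titled so. The F statistic across the groups and the RNase H statistic do not change when the names are rotated, whereas each direction between a pair of groups depends on it. Peak lists hold no RNA level, so the depletion itself could not be checked in them.

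Untreated lists held 23882 to 42571 peaks over 22 to 45.3 Mb, and RNase H lists held 3811 to 8034 peaks over 2.04 to 4.36 Mb. Relative depth, read from the lowest background in each list, was 0.785 to 1.86 times the untreated mean without RNase H and 1.62 to 2.3 times with it. The deepest untreated library was siDDX1 replicate 1. As to the labelled cell type, peaks in at least 1 untreated library lay at 9 of 10 neuroblastoma and neuronal marker genes and at 2 of 6 markers of other cell types (Cd68 in 9 of 9 libraries and Gfap in 4), while 49.9% of all genes had one. A peak list is no measure of expression, and no cell type was read from it.

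Most of these genes serve RNA metabolism. TSEN54, TSEN34 and TSEN15 are subunits of the tRNA splicing endonuclease, which cuts introns out of precursor tRNAs, and CLP1 is an RNA kinase that associates with it. RARS2 charges mitochondrial tRNA with arginine, SEPSECS makes selenocysteine on its tRNA, VRK1 is a nuclear kinase, and CHMP1A belongs to the ESCRT-III membrane remodelling family. EXOSC3 is a cap subunit of the RNA exosome, which degrades and trims RNA, and DDX1, besides its link to R-loops, is part of the tRNA ligase complex that joins the tRNA exons after the endonuclease has cut. R-loops form where a transcript pairs with its template strand, often near gene starts and ends, and unresolved hybrids can lead to DNA breaks.

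Because the DNA was cut before the pull-down, a DRIP-seq peak reports on a restriction fragment, and the cuts set where many peaks end. Of the 92 peaks found at the 8 genes in untreated libraries, 50 (54.3%) had at least 1 edge exactly on a cut and 6 had both edges on cuts. In the untreated lists as a whole, 52.7% to 64.6% of peaks had an edge on a cut. The cuts at which recurrent peaks ended or had their summits are shown here because the position of each peak below is read against them. Each is 30 bases of the plus strand of mouse genome build NCBIM37 (mm9), read 5′ to 3′, with the recognition site in capitals. They lie, in the order shown, at chr11:115679628-115679657 and chr11:115686349-115686378 (XbaI), chr8:125727877-125727906 (EcoRI), chr8:125729379-125729408 (HindIII), chr8:125731776-125731805 (XbaI), chr4:34561965-34561994 and chr4:34608028-34608057 (HindIII), chr1:154223393-154223422 (HindIII) and chr7:3644767-3644796 (EcoRI).
Tsen54 fragment, left cut: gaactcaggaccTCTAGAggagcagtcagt
Tsen54 fragment, right cut: gtcgacgcaaccTCTAGAgatccagtgtta
Chmp1a end, outer cut: tgggaggaccttGAATTCaaggccatcttg
Chmp1a end, inner cut: gaggacaacagaAAGCTTgccatcctccag
Chmp1a middle, cut: gcttccctctacTCTAGAaaggcaccaggt
Rars2 start, cut: ttgcccagagcaAAGCTTgcctcgaacccg
Rars2 end, cut: ggtttagccaatAAGCTTcccttactgagc
Tsen15 intron, cut: tctctggctcagAAGCTTagccactcaaca
Tsen34 start, cut: tcggggatagccGAATTCcaaagtcacggc

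The XbaI site on the left of the Tsen54 fragment was the left edge of a peak in 9 of 9 untreated libraries, and the site on its right was the right edge of a peak in 9 of 9. At the end of Chmp1a, the outer EcoRI site was the edge of 5 peaks, and the inner HindIII site was the edge of 4 peaks and lay within 5 bases of 6 summits. The HindIII site upstream of Rars2 was the edge of 3 peaks and lay within 5 bases of 3 summits. The EcoRI site upstream of Tsen34 was no edge of any peak, yet it lay within 5 bases of 2 summits.

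Cuts also fell close to some gene starts. A site of 1 of the 5 enzymes (BsrGI, TGTACA; EcoRI, GAATTC; HindIII, AAGCTT; SspI, AATATT; XbaI, TCTAGA; each reads the same on both strands and none can contain another) was present in the 250 bases upstream of the start of 4 of the 8 genes, Tsen15, Clp1, Rars2 and Tsen34. Over all 22367 protein-coding genes the share was 22.7%. The upstream 250 bases of 3 genes are shown because they cover the range seen at the starts: Clp1 carried a start peak that ended on the site shown, Tsen15 carried 2 neighbouring sites and no start peak, and Sepsecs carried neither a site nor a peak. All 3 genes lie on the minus strand, at chr2:84567508-84567757, chr1:154233819-154234068 and chr5:53060969-53061218 of NCBIM37, and each sequence is written 5′ to 3′ towards the gene with the sites in capitals.
Clp1: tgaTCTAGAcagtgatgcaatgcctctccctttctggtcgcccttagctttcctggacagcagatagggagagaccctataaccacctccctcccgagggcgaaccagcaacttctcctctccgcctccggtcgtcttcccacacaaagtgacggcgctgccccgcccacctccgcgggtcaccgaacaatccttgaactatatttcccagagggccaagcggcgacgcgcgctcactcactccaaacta
Tsen15: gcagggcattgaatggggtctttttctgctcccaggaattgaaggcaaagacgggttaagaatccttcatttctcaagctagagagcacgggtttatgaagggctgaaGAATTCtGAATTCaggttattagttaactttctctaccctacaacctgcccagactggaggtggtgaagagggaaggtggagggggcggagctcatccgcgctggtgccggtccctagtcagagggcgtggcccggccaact
Sepsecs: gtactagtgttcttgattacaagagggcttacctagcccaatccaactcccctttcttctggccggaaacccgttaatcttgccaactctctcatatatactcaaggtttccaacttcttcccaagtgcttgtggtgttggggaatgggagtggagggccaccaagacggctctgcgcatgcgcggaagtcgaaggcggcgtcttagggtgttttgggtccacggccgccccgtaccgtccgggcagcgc

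Peaks were found at 7 of the 8 genes in at least 1 untreated library, against 49.9% of all protein-coding genes. Tsen54 and Chmp1a had a peak in 9 of 9 untreated libraries, as did 26.2% of all genes. Rars2 and Vrk1 had one in 8, and 30.9% of all genes had one in 8 or more. Tsen15 had one in 6, Tsen34 and Clp1 in 5 each, and Sepsecs in 0. Calls thus ranged from every library to none.

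The share of each gene window under peaks, which takes account of gene length, set Tsen54 and Chmp1a above the other 6 genes. It lay between 44.8% and 59.1% of the Tsen54 window over the 9 untreated libraries, with a median of 55.6%, and between 9.21% and 31.6% of the Chmp1a window, with a median of 17.1%. Clp1 had a median of 3.74% and a highest value of 23.5%, and Tsen34 had a median of 2.96% and a highest value of 13.5%. The long genes were sparsely covered, with medians of 1.84% in Rars2, 1.45% in Tsen15 and 0.484% in Vrk1.

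The 92 peaks merged into 35 regions, of which 20 were called in 1 library only, 4 in 5 or more and 2 in 9 of 9. In the whole set of 69495 merged regions, 45.3% were called in 1 library and 10.7% in 9 of 9. Signal at the summit was low. The number of fragments piled up there could be recovered from the deposited values for 92 of 92 peaks and ranged from 5 to 34, with a median of 9. Outside Tsen54 and Chmp1a the 49 peaks held 5 to 15 fragments, with a median of 8, beside a lowest value of 5 to 7 for any peak of an untreated list. Presence or absence of such a peak was therefore a matter of a few fragments, and a missing peak shows only that the caller's threshold was not reached at this depth.

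**Figure D1:**
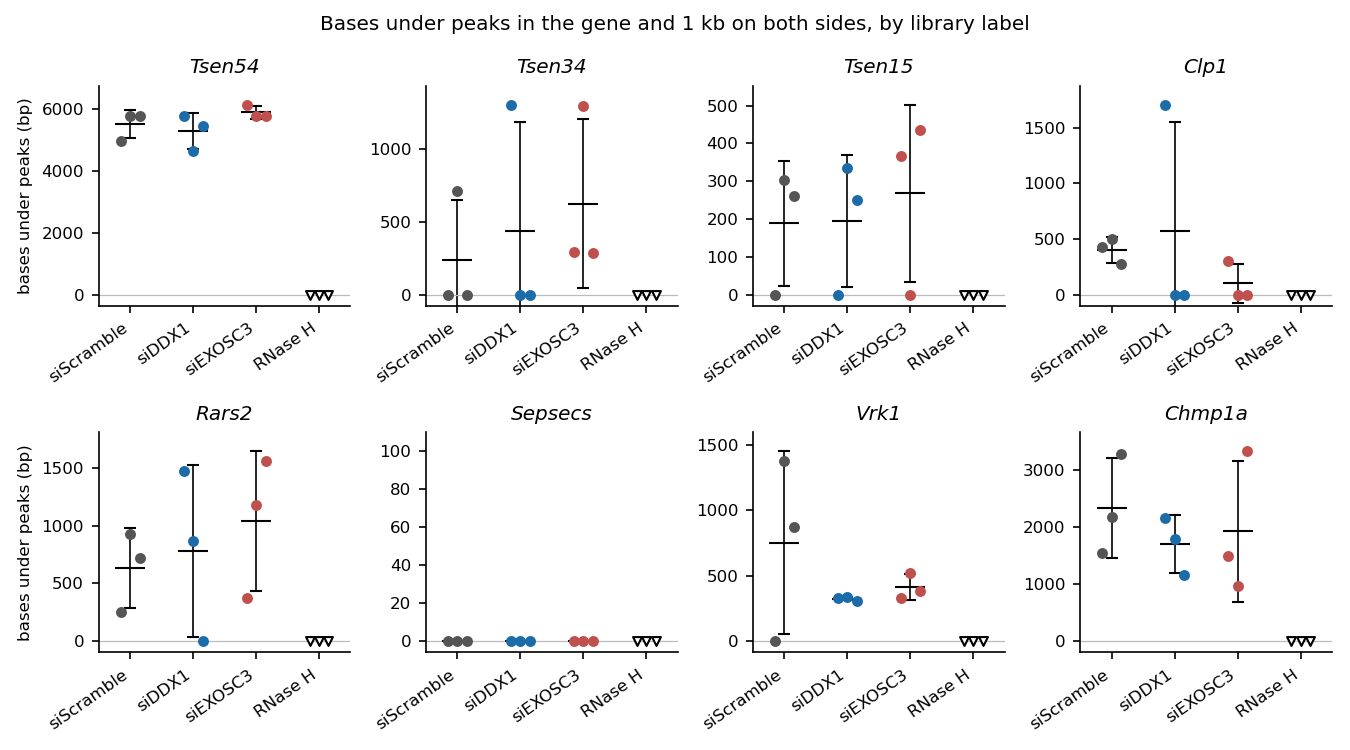
Bases under peaks (bp, linear axis, one scale per gene) in each gene window for the 8 genes. Each filled point is an untreated library of the group as titled, horizontal marks and bars are the mean and SD of 3 libraries, and open triangles are the 3 RNase H libraries, all at 0; the untreated points of the groups overlap at every gene that has peaks, and Sepsecs is at 0 throughout.

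The tRNA splicing endonuclease genes differed strongly among themselves. Tsen54, whose human counterpart is the subunit most often mutated in the disease, carried 15 of the 92 peaks and the highest of them. Bases under peaks in its window were 4971, 5768 and 5768 in the siScramble libraries, 5768, 4642 and 5444 in the siDDX1 libraries and 6125, 5768 and 5768 in the siEXOSC3 libraries. The value of 5768, seen in 5 libraries, is that of a peak running the whole way from the left cut to the end of the window. Means were 5502 ± 460, 5285 ± 580 and 5887 ± 206 bases (SD, n = 3 each), the groups overlapped, and the exact permutation p of the F statistic was 0.321.

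These bases belonged almost wholly to 1 restriction fragment, chr11:115679641-115686365 (6725 bases, XbaI to XbaI), which began 3603 bases downstream of the Tsen54 start. It held the later exons of Tsen54 and the end of the gene at 115684408, and it ran on past the start of the neighbouring gene Llgl2 at 115685363 on the same strand. A peak spanned the fragment from cut to cut in 6 of 9 libraries: siScramble replicates 2 and 3, siDDX1 replicate 1 and all 3 labelled siEXOSC3. In siScramble replicate 1 and siDDX1 replicate 2 it was broken into 3 peaks, and in siDDX1 replicate 3 into 2. DNA between the end of Tsen54 and the start of Llgl2 was thus under the same peak as both genes, and the lists do not say which gene's transcript was in the hybrid.

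**Figure D2:**
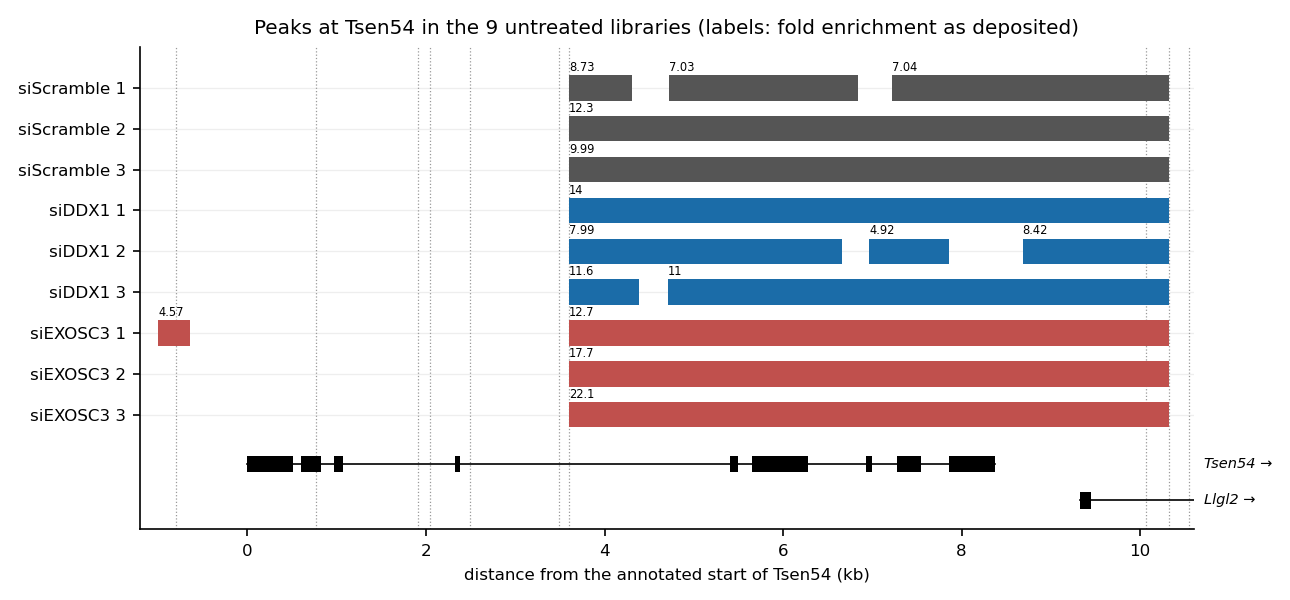
Peaks at Tsen54 in the 9 untreated libraries against distance from its annotated start (kb). Bars are peaks coloured by titled group, with fold enrichment as deposited above each, dotted lines are cuts of the 5 enzymes, black boxes are exons of any annotated transcript; in every library the signal starts and stops at the same 2 XbaI cuts, and the first part of Tsen54 is without peaks except 1 upstream peak in siEXOSC3 replicate 1.

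Fold enrichment over the local background at the strongest peak of this fragment was 8.73, 12.3 and 9.99 in the siScramble libraries, 14, 8.42 and 11.6 in the siDDX1 libraries and 12.7, 17.7 and 22.1 in the siEXOSC3 libraries. All 3 siEXOSC3 values lay above all 3 siScramble values, while the lowest siEXOSC3 value lay below the highest siDDX1 value. Summit pileups were 17, 22 and 19 fragments, 31, 15 and 17 fragments, and 23, 28 and 34 fragments in the same order. The count of 31 came from siDDX1 replicate 1, the deepest of the untreated libraries. Group means of the fold were 10.3 ± 1.81, 11.3 ± 2.78 and 17.5 ± 4.72 (SD, n = 3 each). These values were not all read at the same point of the fragment. In siScramble replicate 2 and siDDX1 replicate 2 the summit lay at chr11:115686364, by the right cut and inside Llgl2. In the other libraries, with all those labelled siEXOSC3 among them, it lay between chr11:115679709 and chr11:115679835, near the left cut.

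Fold was compared on the log2 scale after subtracting the median of each list. Centred log2 fold at the Tsen54 fragment was 0.57, 1.14 and 0.88 for siScramble, 1.42, 0.61 and 1.00 for siDDX1 and 1.18, 1.69 and 1.79 for siEXOSC3, so the strongest peak lay above the median peak of its list in every untreated library. The siEXOSC3 libraries exceeded the siScramble libraries by 0.69 without overlap (two-sided exact permutation p = 0.1, the smallest that 3 against 3 allows). Among 7458 regions called in 9 of 9 libraries, 7.74% had all 3 siEXOSC3 libraries above all 3 siScramble libraries in the same way. The difference from siDDX1 was 0.55, with overlap (exact permutation p = 0.2), and that between siDDX1 and siScramble was 0.14 (exact permutation p = 0.7). Across the 3 groups the exact permutation p was 0.118, and 0.892 after Benjamini-Hochberg adjustment over the 7458 regions, of which 4.88% had an unadjusted p below 0.05. If the peak names are right, the non-overlapping pair is siScramble above siDDX1.

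Dividing the summit pileup by the lowest background of its library, a scaling that leaves out the local background, gave 24.1, 35.8 and 28.8 for siScramble, 24, 23.9 and 31.2 for siDDX1 and 37.7, 44.1 and 61.3 for siEXOSC3. On that scale all 3 siEXOSC3 libraries lay above the other 6, and the exact permutation p across the groups was 0.0214 (0.352 adjusted over the 7458 regions). The shares of regions given above are for centred fold, and no such share is given for this scale, so how common the pattern is cannot be read here. This scaling was chosen after the data were seen, and the difference did not pass adjustment on either scale. A pull-down from many cells cannot tell more cells with a hybrid from more hybrid per cell.

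**Figure D3:**
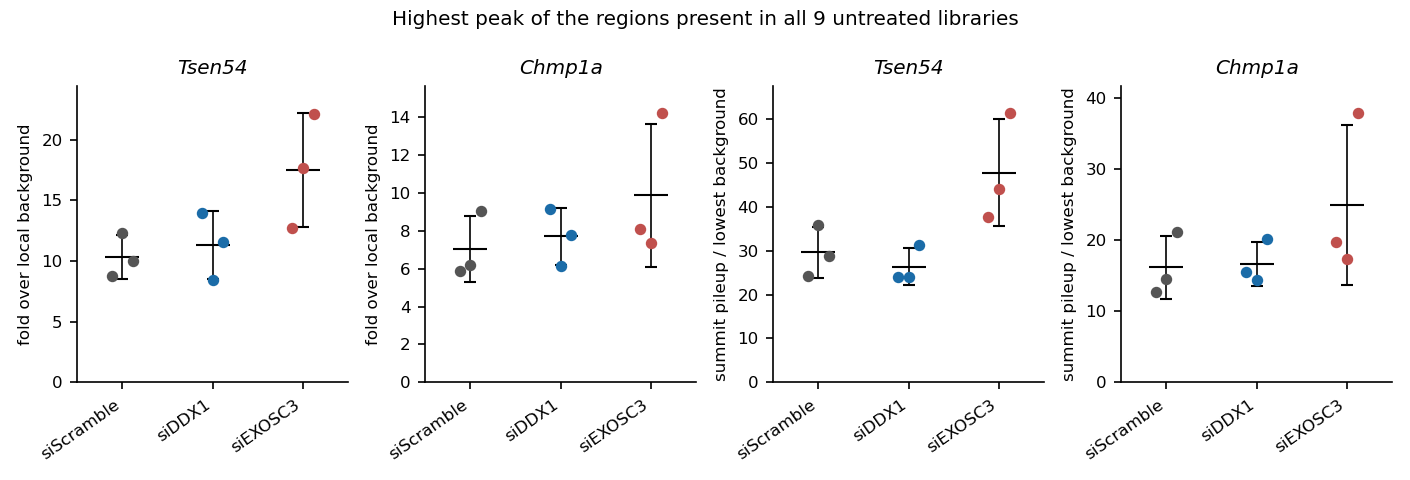
Strongest peak of the Tsen54 fragment and of the Chmp1a end region in the 9 untreated libraries. The first 2 panels give fold enrichment as deposited and the last 2 summit pileup divided by the lowest background of the library (both ratios, linear axes from 0), with points for libraries and marks and bars for the mean and SD of 3; the siEXOSC3 points lie above the siScramble points at Tsen54 and overlap them at Chmp1a.

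At the start of Tsen54 a peak was called in 1 of 9 untreated libraries, siEXOSC3 replicate 1, with a fold of 4.57 and 9 fragments, ending 644 bases upstream of the start. The fragment that contains the start is 1578 bases long, close to the median of 1533 bases over all protein-coding genes. It is rich in G and C (62.7%, higher than in 92.4% of genes). The recurrent signal of Tsen54 thus lay from 3603 bases downstream of its start to past its end, rather than at its start.

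Tsen34, which encodes a catalytic subunit, had most of its peaks within 1000 bases of the start. Bases under peaks were 0, 715 and 0 in the siScramble libraries, 1305, 0 and 0 in the siDDX1 libraries and 293, 1299 and 286 in the siEXOSC3 libraries. Means were 238 ± 413, 435 ± 753 and 626 ± 583 bases (SD, n = 3 each; exact permutation p = 0.721). Each SD was close to or above its mean, and libraries at 0 occurred in 2 of the 3 groups.

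The 8 Tsen34 peaks formed 4 regions. One of them, chr7:3643463-3644995, was called in siScramble replicate 2, siDDX1 replicate 1 and siEXOSC3 replicate 2, with folds of 6.81, 5.67 and 8.56. The peak of siDDX1 replicate 1 crossed the annotated start, and the other 2 ended just upstream of it. The start of Mboat7, which runs in the opposite direction, lies 148 bases inside Tsen34, so the genes overlap at their starts and these peaks cannot be given to either. The second region began 313 bases downstream of the start and was called in siDDX1 replicate 1 and siEXOSC3 replicate 1. The third, over an exon 1205 to 1570 bases downstream, was called in siScramble replicate 2 and siEXOSC3 replicate 2, with folds of 4.88 and 7.69. The fourth lay in an intron 5000 bases downstream and was the peak of siEXOSC3 replicate 3, with a fold of 7.72. Among the 8 genes Tsen34 had the highest excess of G over C in the 500 bases downstream of its start (GC skew 0.216, higher than in 92.6% of genes) and Chmp1a had the lowest (−0.202, higher than in 3.23% of genes).

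Tsen15, the small structural subunit, had 6 peaks, all in 1 intron. Peaks covered 0, 304 and 261 bases in the siScramble libraries, 0, 335 and 249 in the siDDX1 libraries and 366, 0 and 436 in the siEXOSC3 libraries. Each group had 2 libraries with a peak and 1 without. Means were 188 ± 165, 195 ± 174 and 267 ± 234 bases (SD, n = 3 each; exact permutation p = 0.743).

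In the region chr1:154223194-154223771, which lies 10047 to 10624 bases downstream of the start, 3 of the 4 peaks began exactly on the HindIII cut shown above and the remaining peak, in siEXOSC3 replicate 3, had its summit on it. That peak was the strongest of Tsen15, with a fold of 8.63 and 13 fragments, and the other 3 had folds of 4.81, 5.36 and 4.88. The second region, at chr1:154223875-154224191, was called in siScramble replicate 3 and siDDX1 replicate 3. No library had a peak at the start of Tsen15, which lies on a short fragment of 831 bases (shorter than those of all but 21.2% of genes).

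Clp1, the RNA kinase gene, had 5 peaks, all in its first part. Bases under peaks were 430, 499 and 271 in the siScramble libraries, 1704, 0 and 0 in the siDDX1 libraries and 300, 0 and 0 in the siEXOSC3 libraries. All 3 siScramble libraries had a peak, against 1 of 3 in each other group. Means were 400 ± 117, 568 ± 984 and 100 ± 173 bases (SD, n = 3 each; exact permutation p = 0.829). The groups overlapped, since siDDX1 replicate 1 lay above all siScramble libraries and siEXOSC3 replicate 1 lay above siScramble replicate 3.

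The 5 Clp1 peaks merged into chr2:84566023-84567753, from 246 bases upstream of the start to 1484 bases downstream, in the first intron and the exons beside it. Folds were 4.69, 4.34 and 3.6 in the siScramble libraries, 6.98 in siDDX1 replicate 1 and 6.21 in siEXOSC3 replicate 1, and the pileups were 7, 6, 5, 15 and 9 fragments. The siScramble peaks were thus the weakest of the 5 and lay at or just above the lowest pileup of a called peak. The peak of siDDX1 replicate 1 ended on the XbaI site shown above, and the other 4 peaks covered shorter stretches along it, so that the shared region is made of peaks that do not all overlap each other.

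Rars2, the mitochondrial arginyl-tRNA synthetase gene, held 18 peaks in 11 regions. Peaks covered 250, 929 and 721 bases in the siScramble libraries, 1478, 868 and 0 in the siDDX1 libraries and 376, 1180 and 1562 in the siEXOSC3 libraries. Means were 633 ± 348, 782 ± 743 and 1039 ± 605 bases (SD, n = 3 each; exact permutation p = 0.675). The groups overlapped, and 7 of the 11 regions were called in 1 library only.

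One region differed in occurrence. At chr4:34608041-34608674, beginning 625 bases past the annotated end of Rars2 and on the HindIII cut shown above, a peak was called in 3 of 3 siEXOSC3 libraries and in 0 of the 6 other untreated libraries. Folds were 4.76, 5.13 and 4.27, with 8, 9 and 7 fragments, so these were weak peaks. Of all 69495 merged regions, 0.196% showed this pattern for siEXOSC3, and of 5754 regions called in exactly 3 libraries, 4.54% had all 3 in 1 group. The region was singled out after its values were seen, no test was made of it, and by the peak names it would belong to siScramble.

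At the start of Rars2 the region chr4:34561670-34562598 was called in 4 libraries: siScramble replicate 2, siDDX1 replicate 2 and siEXOSC3 replicates 2 and 3. Folds were 5.57, 5.53, 6.73 and 6.43. Rars2 shares this start with Orc3, a replication gene that runs the opposite way from a start 13 bases away, and the HindIII cut upstream divides the region. The peak of siDDX1 replicate 2 lay wholly on the Orc3 side of the cut, those of siScramble replicate 2 and siEXOSC3 replicate 3 wholly on the side of both starts, and that of siEXOSC3 replicate 2 crossed it.

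**Figure D4:**
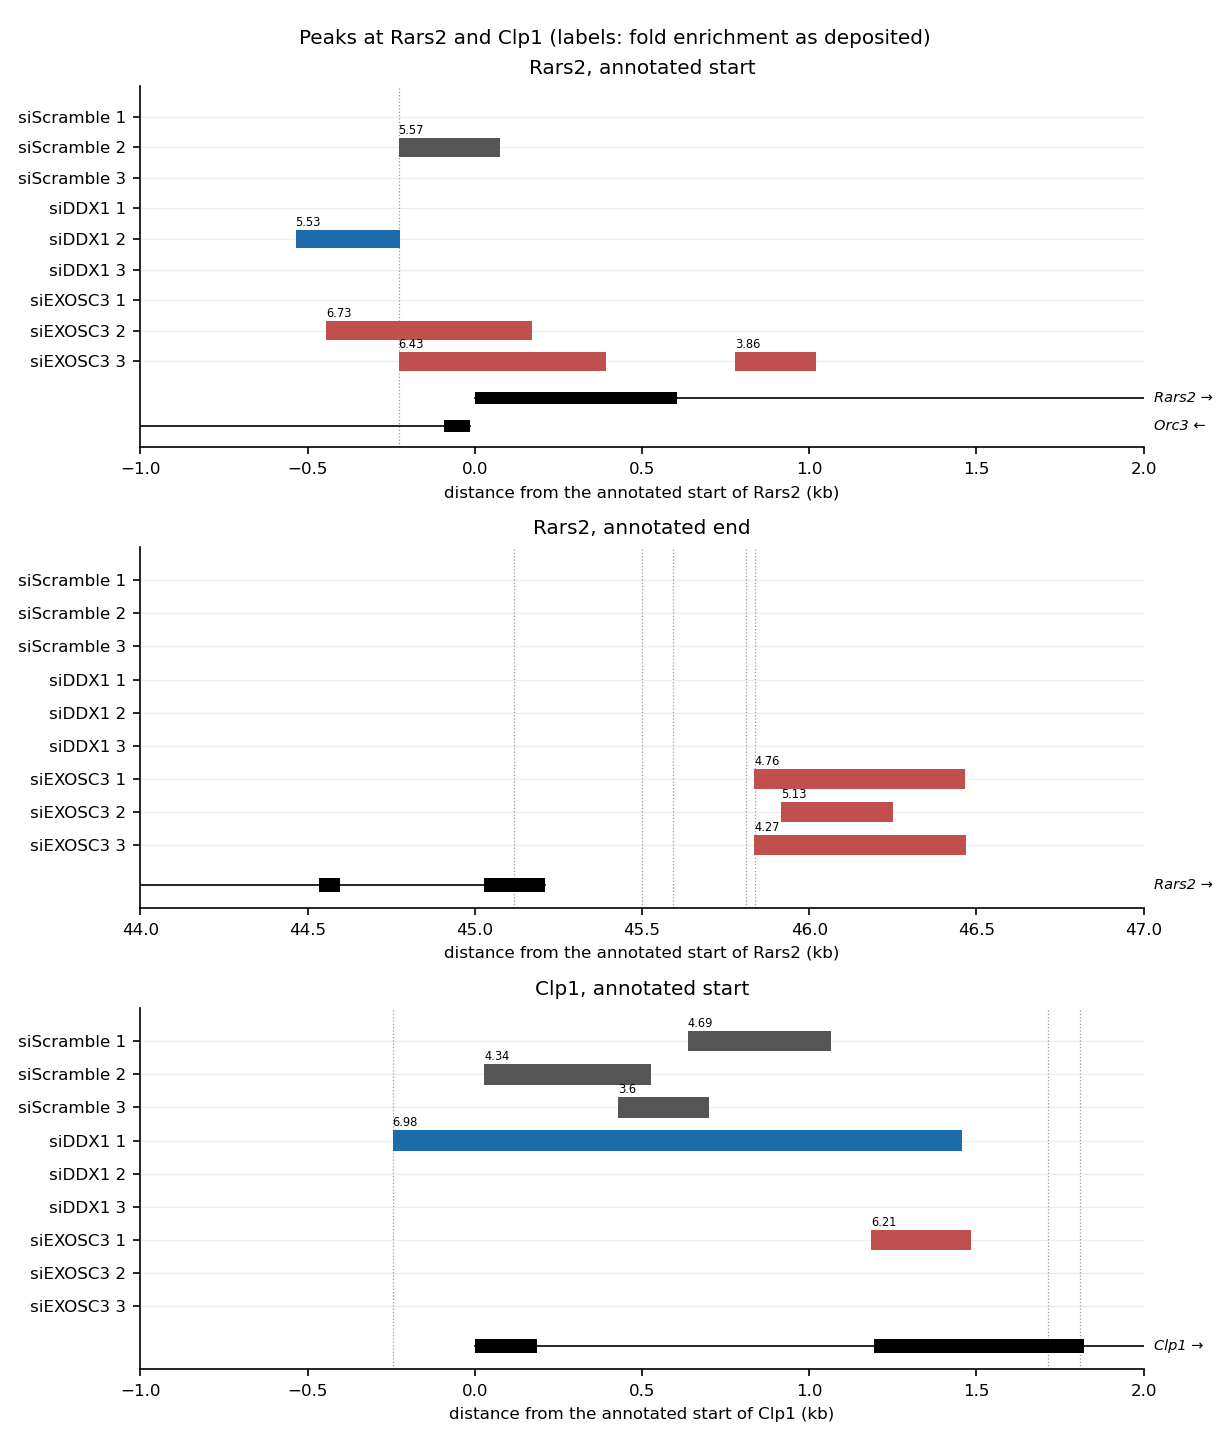
Peaks in the 9 untreated libraries at the start of Rars2, at the end of Rars2 and at the start of Clp1, against distance from the annotated start along the gene (kb). Bars are peaks coloured by titled group with fold enrichment as deposited, dotted lines are cuts and black boxes are exons; the Rars2 end region has bars in the 3 siEXOSC3 libraries and in no other, and the short Clp1 bars of the siScramble libraries lie at different positions along the long peak of siDDX1 replicate 1.

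Sepsecs, the selenocysteine synthesis gene, had no peak in any of the 12 lists. This was so for 50.1% of protein-coding genes over the untreated libraries. Its start lies on a fragment of 722 bases, shorter than those of most genes (percentile 17.1), and the part of fragment length in its lack of peaks was not tested.

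Vrk1, the gene of a nuclear kinase and at 67148 bases the longest of the 8, had 12 peaks in 11 regions and none at its start. Bases under peaks were 0, 1382 and 876 in the siScramble libraries, 329, 335 and 310 in the siDDX1 libraries and 333, 524 and 380 in the siEXOSC3 libraries. Means were 753 ± 699, 325 ± 13.1 and 412 ± 99.5 bases (SD, n = 3 each; exact permutation p = 0.45). The siScramble group held both the lowest value and the highest.

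The result for Vrk1 turned on 1 library. Without siScramble replicate 1, the library with the fewest peaks of all 9, the exact permutation p was 0.00714 (0.701 adjusted over all genes), with the remaining siScramble values above those of both other groups. Of the 11 regions, 10 were called in 1 library only and lay in introns. The exception, chr12:107313329-107313852, covered an exon near the end of the gene, was called in siEXOSC3 replicates 2 and 3, and ended on an XbaI cut in both, with folds of 3.53 and 5.15.

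Chmp1a, the ESCRT-III gene, held the most separate peaks of the 8 genes, 28, and like Tsen54 had a peak in 9 of 9 untreated libraries. Peaks covered 1539, 2163 and 3270 bases in the siScramble libraries, 2154, 1793 and 1161 in the siDDX1 libraries and 1484, 967 and 3319 in the siEXOSC3 libraries. Means were 2324 ± 877, 1703 ± 503 and 1923 ± 1236 bases (SD, n = 3 each; exact permutation p = 0.729). The lowest and the highest values were both from siEXOSC3 libraries.

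The region present in 9 of 9 libraries, chr8:125727890-125730358, is the union of their peaks, from 6305 to 8773 bases downstream of the Chmp1a start. It spans the last exons and the end of the gene at 125728164, but not every library had a peak over that end. The peak of siScramble replicate 1 began at 125729023, for example, and that of siEXOSC3 replicate 2 at 125729392. Fold at the strongest peak of the region was 5.86, 6.19 and 9.04 in the siScramble libraries, 9.16, 6.15 and 7.77 in the siDDX1 libraries and 8.08, 7.34 and 14.2 in the siEXOSC3 libraries. Pileups were 9 to 21 fragments. Group means of the fold were 7.03 ± 1.75, 7.69 ± 1.51 and 9.86 ± 3.74 (SD, n = 3 each). These values, too, were not all read at the same point. The summit lay at chr8:125727939 in siScramble replicate 2 and at chr8:125728038 in siDDX1 replicate 2, between the EcoRI and HindIII cuts. In siScramble replicates 1 and 3 and siEXOSC3 replicate 2 it lay beyond the HindIII cut, at chr8:125730108, chr8:125729732 and chr8:125729609. In the other libraries it lay at chr8:125729394, on the HindIII cut. On the centred log2 scale the groups overlapped (exact permutation p across the 3 groups = 0.432, adjusted p = 0.924), and siEXOSC3 minus siScramble was 0.40 (exact permutation p = 0.3). As at Tsen54 the highest value was that of siEXOSC3 replicate 3, whose list also had the highest median fold of the 9.

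Further into Chmp1a, chr8:125731269-125732481 was called in 8 of 9 libraries, all except siEXOSC3 replicate 2, and 5 of its peaks ended on the XbaI cut shown above. At the start, chr8:125735855-125736738 was called in 1 library of each group (siScramble replicate 3, siDDX1 replicate 2 and siEXOSC3 replicate 3), and in siDDX1 replicate 1 a peak lay 160 to 557 bases upstream, towards 4732415M23Rik, which starts 95 bases away in the opposite direction. Along Chmp1a, too, the recurrent signal lay in the later part of the gene. The annotation also places the readthrough gene model Gm20388 across the whole locus and the pseudogene Gm10279 inside it, so reads there may not belong to Chmp1a alone.

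**Figure D5:**
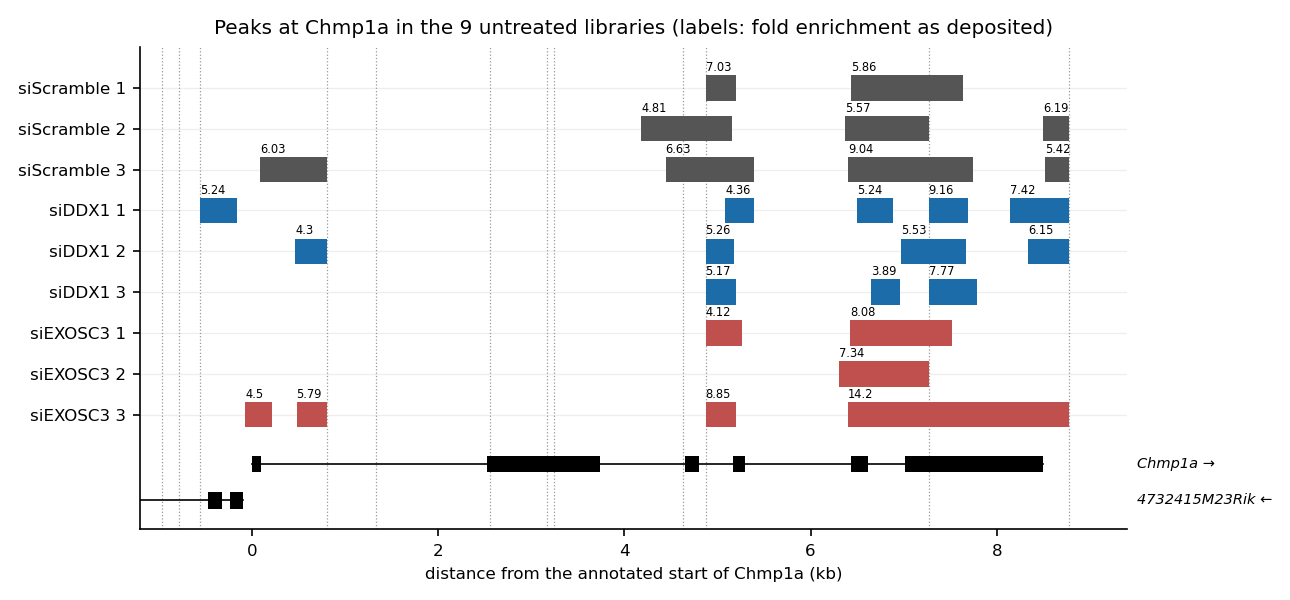
Peaks at Chmp1a in the 9 untreated libraries against distance from its annotated start (kb, along the gene). Bars are peaks coloured by titled group with fold enrichment as deposited, dotted lines are cuts and black boxes are exons of any annotated transcript; bars stack up in the last 3 kb of the gene in every library and around 5 kb in all but siEXOSC3 replicate 2, with 4 libraries showing bars near the start.

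Taking the 8 genes together, bases under peaks differed between the 3 groups for none of the 7 that could be tested, at an adjusted or an unadjusted exact permutation p below 0.05. Over the 11156 genes with a peak, 0% passed after adjustment and 2.79% had an unadjusted p below 0.05. Adjusted p was 1 for each of the 7, a value that carries little information. The smallest exact permutation p over the 280 splits is 0.00357, so among 11156 genes none can pass adjustment unless many reach low p together. How large a change could have been found at each of these 7 genes was not tested. No pair of groups stood apart without overlap at any of the 7 genes, against 15.9% of the 11156 genes. Exosc3 itself, treated in the same way, had 0, 0 and 601 bases under peaks in the siScramble libraries, 338, 0 and 0 in the siDDX1 libraries and 0, 316 and 810 in the siEXOSC3 libraries (exact permutation p = 0.679).

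Peaks within 1000 bases of the start were found at 5 of the 8 genes in some untreated library (Tsen54, Tsen34, Clp1, Rars2 and Chmp1a), against 34.1% of all genes, and at 0 of 8 in every library, against 11.1% of all genes. Tsen34, Clp1, Rars2 and Chmp1a had one in 4 libraries each, and 24% of all genes had one in 4 or more. Counted by library, the genes with a start peak numbered 1, 3 and 2 of 8 in the siScramble libraries, 3, 2 and 0 in the siDDX1 libraries and 2, 2 and 2 in the siEXOSC3 libraries. Over all genes 15.8% to 27% had one. Of 72 pairs of gene and library 17 had a start peak, and since none of the 8 genes had a start peak throughout, start folds were not tested across groups.

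RNase H digestion served as the control for hybrids. None of the 8 genes had a peak in any of the 3 RNase H libraries, while 13.5% of protein-coding genes had one in at least 1 of them. On average over the groups, bases under peaks fell by 5558 at Tsen54 and fell by 1983 at Chmp1a, for both with an exact permutation p of 0.0156, the smallest that the 64 assignments allow, and an adjusted p of 0.0388. Among 12116 genes 38.2% were lower at an adjusted p below 0.05 and 48% at an unadjusted one. At the other genes the untreated libraries were themselves partly at 0, and the differences did not pass the test: −818 bases at Rars2 and −497 at Vrk1 (exact permutation p = 0.0625, adjusted p = 0.11 for both), −433 at Tsen34 (p = 0.297, exact permutation), −356 at Clp1 (p = 0.391, exact permutation) and −217 at Tsen15 (p = 0.188, exact permutation).

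The loss at Tsen54 and Chmp1a occurred in libraries with a higher background than most untreated ones. A called peak in an RNase H list held at least 8 or 9 fragments, against 5 to 7 in untreated lists. These counts are not scaled for depth, which was 1.62 to 2.3 times the untreated mean in the RNase H lists. An unchanged hybrid would give more fragments at greater depth, so counts from the 2 kinds of list do not compare directly. The part of the calling threshold in the loss was not tested. At Tsen54 the strongest untreated peaks held 15 to 34 fragments. At Chmp1a those of the region called in 9 of 9 libraries held 9, 9 and 14 fragments in the siScramble libraries, 20, 9 and 11 in the siDDX1 libraries and 12, 11 and 21 in the siEXOSC3 libraries, so that 3 of the 9 stood at a value of 9, the lowest of any peak in the siScramble RNase H list. With peaks of −log10 q of at least 5 only, or leaving out siScramble replicate 2, siDDX1 replicate 1 or siDDX1 replicate 2, the exact permutation p at Chmp1a rose to between 0.0417 and 0.0469. With 1 library left out the smallest possible p was 0.0208, and 3 genes passed adjustment without siScramble replicate 1 (Tsen54, Chmp1a and Vrk1), 1 without siDDX1 replicate 1 or 2, and 0 without any of the other 6.

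Partner genes gave the same mixture of regular and sparse calls. Of 17 other genes mutated in the disease group, 14 had a peak in some untreated library, 7 had one at the start and 1 had one at the start in 9 of 9. Over all protein-coding genes the shares were 49.9%, 34.1% and 11.1%, and the same shares apply to the lists that follow.

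Of 10 matched genes of the tRNA ligase complex and tRNA maturation, 9 had a peak, 7 had one at the start and 5 had one there in 9 of 9 libraries. Rtcb, the ligase itself, had 305, 1188 and 3241 bases in the siScramble libraries, 1749, 871 and 375 in the siDDX1 libraries and 366, 266 and 497 in the siEXOSC3 libraries (exact permutation p = 0.357), and Ddx1 had 1925, 4062 and 4373, then 5033, 2013 and 2603, then 2344, 2746 and 3093 bases (exact permutation p = 0.729). Both had a peak in 9 of 9 untreated libraries, with overlapping groups. Among 9 matched genes of selenocysteine synthesis and mitochondrial charging, 9 had a peak and 3 had one at the start, although Sepsecs had none. Among 11 matched genes of ESCRT-III and Vps4, the family of CHMP1A, 9 had a peak and 7 had one at the start. None of the genes in these 4 lists had an unadjusted exact permutation p below 0.05 across the groups, against 2.79% of all genes with a peak. At none did the siScramble libraries lie apart from those of both depletions. Lars2 and Sephs1 of the selenocysteine and charging list and Vps53 of the disease list also had peaks under RNase H. Over all protein-coding genes, 13.5% had a peak in at least 1 RNase H library.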

How the data were processed

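DRIP-seq peak lists of 12 libraries were analysed, 9 untreated and 3 digested with RNase H. The 1 input sample was not analysed here. Per the study's methods and the submitters' processing notes, the authors aligned reads to mm9 with Bowtie2 2.4.4, sorted them with SAMtools, called peaks for each library with MACS2 2.2.6 against input, recounted reads in merged peaks for DESeq2 and annotated with HOMER 4.11. The deposited lists give, for each peak, fold enrichment (a linear ratio to the local background) and −log10 values of p and q, as the authors' caller wrote them. Read counts were not used here, so the authors' count test was not repeated.

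Gene bounds came from GENCODE vM1 on NCBIM37, the same assembly as mm9 (no peak ran past a chromosome end). Bases under peaks were summed over each gene extended by 1000 bases, and start peaks were those within 1000 bases of the annotated 5′ end. Summit pileup and local background, in fragments, were recovered from the fold and the −log10 p-value, for which 90.4% to 100% of 2000 sampled peaks per list gave a whole pileup (tolerance 0.002 in −log10 p). The lowest background in a list served as relative depth. Pileups cover counting error only, and fragments may include PCR copies. Peaks were joined into regions where they overlapped between untreated libraries.

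Groups were taken from the sample titles. The 3 groups were compared with the F statistic over the 280 splits of 9 libraries into 3 groups of 3 (smallest p 0.00357), pairs of groups two-sided over 20 assignments, and RNase H two-sided over 64 assignments within groups, all as exact permutation tests, with Benjamini-Hochberg adjustment over all genes or regions tested. Titles number replicates, and the study's methods describe them as biological replicates, seeded as 3 plates per condition. The code was tested on simulated data, in which 20% and 59.5% of 200 genes changed 2-fold and 4-fold had an unadjusted p below 0.05, against 4.8% of unchanged genes. Alternatives were another threshold, window, scale and joining distance, the replicate number as a block, and each library left out. The alternatives for fold at regions called in 9 of 9 libraries were chosen after seeing the data. All 8 genes are named. Genes of the lists (disease genes, tRNA ligase and maturation, selenocysteine and mitochondrial charging, ESCRT-III, cell type markers) are given as counts, and Rtcb and Ddx1 with values. A further gene of the naming rule is not reported here. The genes and lists were chosen with earlier results of these data known. The symbols Ashwin, Sars1 and Chmp1b were not matched to the annotation. Analyses used Python 3.11.15, numpy 2.4.6, scipy 1.17.1 and matplotlib 3.10.9.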

Additional observations from a re-analysis of the deposited data

How the results depend on the processing

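Across the 3 groups, 0 genes had an adjusted p below 0.05 under every alternative run, and 0 had an unadjusted p below 0.05 except without siScramble replicate 1, where there was 1, Vrk1 (leaving out single libraries, 0 to 1). Pairs of gene and library with a start peak numbered 17, and 11 at −log10 q of at least 5. For RNase H, 2 genes passed adjustment (Tsen54 and Chmp1a), against 1 at −log10 q of at least 5, 1 with summits in the window and 1 with peaks up to 1000 bases apart joined. Leaving out single libraries left 0 to 3 (3 without siScramble replicate 1, where Vrk1 joined them), in a design whose smallest p was then 0.0208 before adjustment. With log2(bases + 100), 4 genes had an unadjusted p below 0.05, since Rars2 and Vrk1 joined them. No direction reversed. Fold at the Tsen54 fragment kept an exact permutation p between 0.0786 and 0.282, except 0.0214 for pileup over the lowest background.

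Libraries with the same replicate number did not deviate together (correlations from −0.20 to 0.17, and 3 of 9 libraries correlated best with their own number), so numbers were not treated as pairs. With the replicate number as a block, 0 genes had an unadjusted p below 0.05 across the groups, and fold gave p = 0.278 at Tsen54 and 0.417 at Chmp1a (exact permutation), so the block changed no call. The planned scale and block alternatives for start fold gave no value, because none of the 8 genes had a start peak in every untreated library. Depth limits the sparse genes most, whose peaks held 5 to 15 fragments.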
